A study of Rattus norvegicus with 4 samples.

Results

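Solute carrier genes are the subject here, taken by name from the array: probes whose gene name, without a trailing "predicted" or "mapped", is Slc, a number, the letter a and a number, or starts with Slco and a number. The rule took 340 of 41012 probes and 268 of 35561 gene names. Families with another letter, such as Slc35b, and names with an added suffix fell outside it. The genes were sorted by family number into 10 substrate groups. Of the 268 genes, 138 could be tested, through 163 probes, and 130 could not. Of these 130, 78 had no probe whose signal stood well above background, in any channel of any array.

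Solute carriers are membrane proteins that move ions, sugars, amino acids, nucleosides, metals and metabolites across cell and organelle membranes by facilitated diffusion, exchange or cotransport with sodium or protons. In the colon they take up sodium chloride through paired sodium-proton and chloride-bicarbonate exchangers and absorb bacterial butyrate as a fuel for the epithelium. Members of the Slc25 family sit in the inner mitochondrial membrane and pass metabolites and nucleotides between cytosol and matrix. Loss of sodium chloride absorption and of butyrate uptake is a known feature of inflamed colon.

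The series measured RNA of colon mucosa from rats of the inbred F344 strain that drank 5% dextran sodium sulphate (DSS), which damages the colonic epithelium and causes colitis, for 5 days. Treated rats ate resveratrol, a polyphenol found in grapes, at a daily 1 mg per kg over the 20 days before the DSS, and control rats ate standard chow, so both groups had colitis and no rat without DSS was measured. With 8 rats in each group, every array compared a Cy5-labelled pool of 2 resveratrol rats (rats 1 and 2, 3 and 4, 5 and 6, 7 and 8, named replicates 1 to 4) with a Cy3-labelled pool of control RNA. The dyes were not exchanged, and the sources used here do not give how many rats the control pool held or the ages of the rats.

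All values below are log2 ratios of resveratrol plus DSS over the DSS control pool, so that 1 is 2-fold higher and negative values are lower with resveratrol. They compare transcript amounts in whole mucosa, where fewer cells of a type and less RNA per cell cannot be told apart. A value after ± is the moderated standard error from limma, which draws the spread of each probe toward that of the other probes. A gene is called higher or lower, and said to have risen or fallen, where its brightest tested probe differed from 0 at a Benjamini-Hochberg adjusted p of at most 0.05 over 18869 probes. The test treats the pool as 1 control sample and leaves out the spread among control rats.

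Spots well above background made up 44.1% to 49.2% of an array in Cy5 and 42.8% to 57.1% in Cy3. Precision is limited by having 4 arrays. Replicates 1 and 2 lay on one slide and replicates 3 and 4 on another, where outlier flags removed 11% and 13.7% of spots against 3.5% and 4.7%. All 14 epithelial markers looked up were tested, 6 were called higher and the others not called, and their median was 0.50. Of the fibroblast and muscle markers 6 of 9 tested were lower with a median of -1.40, of the leukocyte markers 6 of 8 with a median of -0.65, and of the neuron and glia markers 3 of 4. Pancreatic enzyme genes were lower for 6 of 7 tested, with a median of -1.16, and Amy2 and Prss1 were not well above background in Cy5 on any array. The part of these shifts in the carrier values was not tested.

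The array reads each gene through probes of 60 bases, and those that carry the main findings are shown first, 5′ to 3′ with their rn3 positions. Capitals mark any of 13 hexamers, such as CACCTC and ACCACC, that were at least 4 times as frequent among the 500 probes with the highest ratios outside the solute carrier genes as among all probes and were held by at least 10% of those 500. The match is on the probe strand as the files give it. No rn3 annotation was used here, so exons and untranslated regions are not named. Positions longer than 60 bases span a gap in the genome. The first set has the highest carrier ratios.

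Slc9a10 (chr11:56760168.0-56765841.0, minus strand): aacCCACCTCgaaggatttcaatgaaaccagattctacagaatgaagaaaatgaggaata
Slc43a3 (chr3:68055834.0-68055893.0, plus strand): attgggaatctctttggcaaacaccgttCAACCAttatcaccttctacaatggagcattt
Slc9a4 (chr9:39769172.0-39773243.0, plus strand): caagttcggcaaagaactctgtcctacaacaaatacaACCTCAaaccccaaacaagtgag
Slc4a1 (chr10:91473198.0-91473770.0, minus strand): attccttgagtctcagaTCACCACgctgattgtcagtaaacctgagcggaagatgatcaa
Slc9a2 (chr9:39917402.0-39917461.0, plus strand, 30 bases of the probe): actttggagaAACCACCcactttttgcact
Slc17a1 (chr17:48351654.0-48351713.0, minus strand, 30 bases of the probe): caaCAACCACCcatatatgagcagcagtga
Slc25a11 (chr10:57538515.0-57538651.0, minus strand): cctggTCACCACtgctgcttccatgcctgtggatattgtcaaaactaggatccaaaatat

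These are 7 of the 9 genes called at a log2 ratio of at least 1, and each of their probes holds a marked hexamer. The other 2, Slc16a1 and Slc25a10, have probes without one. Outside the carriers, 351 tested probes with a hexamer and 114 without one had a ratio of at least 1. Most probes at this level thus held a hexamer there too, and this is no trait of the carriers. The second set has probes of genes called lower, of which Slc7a2 and the brightest probe of Slc25a4 hold a hexamer.

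Slc7a2 (chr16:54752575.0-54752634.0, minus strand): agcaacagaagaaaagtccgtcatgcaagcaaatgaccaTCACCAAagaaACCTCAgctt
Slc2a3 (chr4:159459854.0-159459913.0, minus strand): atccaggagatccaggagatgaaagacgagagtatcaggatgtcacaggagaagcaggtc
Slc22a15 (chr2:196936852.0-196936911.0, minus strand): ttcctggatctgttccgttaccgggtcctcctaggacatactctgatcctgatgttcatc
Slc25a4 brightest (chr16:49355397.0-49355456.0, plus strand): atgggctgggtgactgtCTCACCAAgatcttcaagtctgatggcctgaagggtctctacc
Slc25a4 second (chr16:49355063.0-49355122.0, plus strand): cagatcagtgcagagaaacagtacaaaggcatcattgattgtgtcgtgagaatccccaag

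Among the 163 tested carrier probes, 30 held a hexamer, and 13 of these were higher and 6 lower. Of the 133 without one, 34 were higher and 25 lower. As shares, 43.3% of carrier probes with a hexamer were higher and 20.0% lower, and of those without 25.6% and 18.8%. Outside the carriers 30.3% of probes with a hexamer were higher and 18.4% lower, and of those without 23.1% and 23.6%. The difference between these contrasts was not tested. A hexamer was held by 16.5% of tested probes outside the carriers. The part of probe sequence in the values was not tested.

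Of the 138 tested carrier genes, 38 rose (27.5%) and 27 fell (19.6%). Over the 16534 genes tested on the array 22.3% were higher and 24.4% were lower, so that neither share stood far from the background. Counted by probe, 47 of 163 carrier probes were higher (28.8%) and 31 lower (19.0%), beside 24.4% and 22.7% of all 18869 probes. The median carrier ratio was -0.05 and that of all genes -0.07. The single ratios ran from -1.87 for Slc39a5, which was not called, to 1.97 for Slc9a10. When the arrays were centred on their medians in place of loess, 53 carrier genes were higher and 12 lower (38.4% and 8.7%), beside 34.4% and 10.3% of all genes. The median of all genes moved from -0.07 to 0.16 with that centring.

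**Figure D1:**
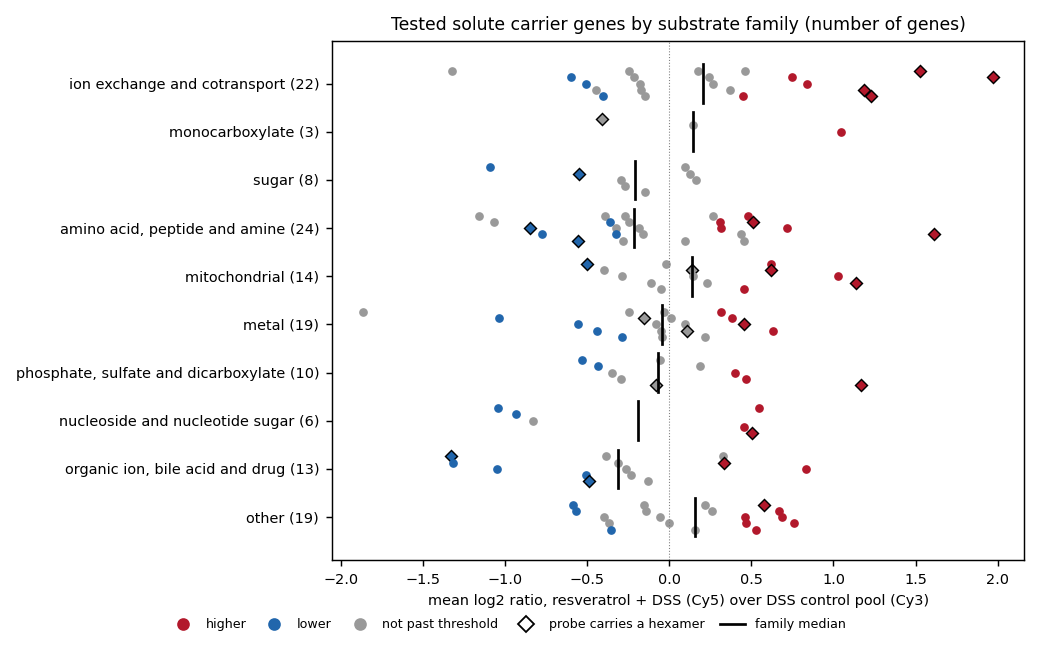
Mean log2 ratio (x axis, resveratrol plus DSS over the DSS control pool) of the 138 tested solute carrier genes, each a point, in 10 substrate families with the number of genes in parentheses. Red points rose, blue points fell, grey points did not pass the test, diamonds mark a probe with a hexamer, and bars give family medians, which lie between -0.32 for organic ion carriers and 0.21 for ion exchangers.

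Of the 65 called genes, 23 kept their call when each of the 4 arrays in turn was left out, 17 higher and 6 lower. For Slc25a4, one of the lower ones, the fits without replicate 1 or 2 rest on its second probe, as the brightest had values in these arrays alone. Under every one of the 18 alternative settings in which they had a value, 13 of the 65 kept their call. The 10 higher ones were Slc9a10, Slc43a3, Slc9a4, Slc9a2, Slc17a1, Slc16a1, Slc25a10, Slc9a3, Slc22a18 and Slc25a12, and the 3 lower ones Slc7a2, Slc22a15 and Slc2a3. Of these 13, 7 have a probe with a hexamer, so the setting without hexamer probes could not end their calls. Slc9a10, Slc17a1 and Slc7a2 could not be tested on the second slide alone, where 32 of 47 named calls were lost. Of the 65, 18 had a channel well above background on fewer than 4 arrays. Without replicate 1, 18 of 121 tested genes were higher and 8 lower (14.9% and 6.6%), beside 11% and 9.9% of all genes. Without replicate 2 the counts were 18 and 10 of 121 (14.9% and 8.3%), beside 11.3% and 9.3%. Without replicate 4 they were 26 and 15 of 135 (19.3% and 11.1%), beside 19.3% and 16.8%. Without replicate 3 they were 37 and 27 of 135 (27.4% and 20.0%), beside 23.5% and 24.4%. On the first slide alone 45 of 131 tested genes were higher and 31 lower (34.4% and 23.7%), beside 31.3% and 27.5% of all genes. On the second slide alone the counts were 11 and 7 of 106 (10.4% and 6.6%), beside 4.9% and 7.4%. Fitting slides as random blocks gave 30 and 18 of 138 (21.7% and 13%), beside 18.1% and 18.3%.

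Ion exchangers and cotransporters had the highest median, 0.21, with 7 of 22 tested genes higher and 3 lower. Sodium-proton exchangers of the Slc9 family led them. Slc9a3 (NHE3), the exchanger that absorbs sodium at the apical face of colonocytes, had ratios of 1.03, 0.79, 0.60 and 0.94 in replicates 1 to 4. It rose by 0.84 ± 0.10 (n = 4 arrays, limma adjusted p = 0.00492), and its probe holds no hexamer. Under median centring its mean was 1.41. Slc9a2 (NHE2), a second apical exchanger of the gut, read 1.37, 1.01, 0.76 and 1.62, a rise of 1.19 ± 0.15 (n = 4, limma adjusted p = 0.00523). For both exchangers the lowest array lay well above 0.

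Slc9a4 (NHE4), best known from the basolateral membrane of gastric parietal cells, had ratios of 1.74, 0.92, 1.17 and 2.27 and a mean of 1.53 ± 0.23 (n = 4, limma adjusted p = 0.00666). Its control channel was well above background on 2 of the 4 arrays. Slc9a10, today named Slc9c1 and known as a sodium-proton exchanger of sperm, read 2.56, 1.74 and 1.62 in replicates 1 to 3, with its spot flagged in replicate 4, and rose by 1.97 ± 0.21 (n = 3, limma adjusted p = 0.00515). It was the highest carrier ratio in this fit.

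Of the anion exchangers, Slc4a2 (AE2), a widely expressed chloride-bicarbonate exchanger, read 0.45, 0.43, 0.94 and 1.16 and rose by 0.75 ± 0.15 (n = 4, limma adjusted p = 0.0132). Both arrays of the second slide were above both of the first, and its control channel was well above background on 1 of the 4 arrays. With the scanner's processed signals it averaged 1.54 (adjusted p = 0.00439). Slc4a1, the band 3 exchanger of red cells, read 2.32, 1.57, 0.24 and 0.78, a rise of 1.23 ± 0.33 (n = 4, limma adjusted p = 0.0283). Its second probe averaged -0.18 ± 0.23 and was not called, and the mean over both probes was 0.53 with an adjusted p of 0.143. The call of Slc4a1 was lost without replicate 1 (adjusted p = 0.063), without replicate 2 (0.0823) and without replicate 4 (0.0523). The haemoglobin genes of the same cells fell to -2.65 (Hbb) and -3.28 (Hbb-b1), and the erythroid heme synthesis gene Alas2 fell to -0.66. What set the Slc4a1 probe apart from them was not tested.

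Slc26a3 (DRA), the chloride-bicarbonate exchanger that works beside NHE3 in chloride absorption, read 0.02, 0.26, -0.10 and 0.90, with a mean of 0.27 ± 0.17 that did not pass the test (n = 4, limma adjusted p = 0.232). The sulfate carrier Slc26a2 had values of 0.33 and 0.15 on the first slide and did not pass either (mean 0.24). Both passed under median centring, at 0.77 and 0.67, and with flagged spots kept, at 0.66 and 0.28. The basolateral cotransporter Slc12a2 (NKCC1), which loads cells with chloride for secretion, averaged 0.37 ± 0.13 (adjusted p = 0.0618), and it passed under median centring (0.54, adjusted p = 0.00566) and with flagged spots kept (0.44, adjusted p = 0.0349). The potassium-chloride cotransporter Slc12a7 had 4 tested probes between -0.21 and 0.53, of which 1 was called, and its brightest read 0.46 (adjusted p = 0.105). Without replicate 3 that probe averaged 0.72 with an adjusted p of 0.00775. Slc4a4 was not tested and Slc26a6 had no probe under this name.

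The 3 ion carriers that fell were the sodium-potassium-calcium exchangers Slc24a3 and Slc24a4 and Slc26a11. Slc24a3 read -0.53, -0.42, -0.94 and -0.51, a mean of -0.60 ± 0.11 (n = 4, limma adjusted p = 0.0109). Slc24a4 averaged -0.41 ± 0.09 (n = 4, limma adjusted p = 0.016), and its call was lost without replicate 1 (adjusted p = 0.0654) and without replicate 2 (0.0816). Its Cy5 signal was well above background on 1 of the 4 arrays. Slc26a11 was measured on the first slide alone, at -0.52 and -0.50.

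**Figure D2:**
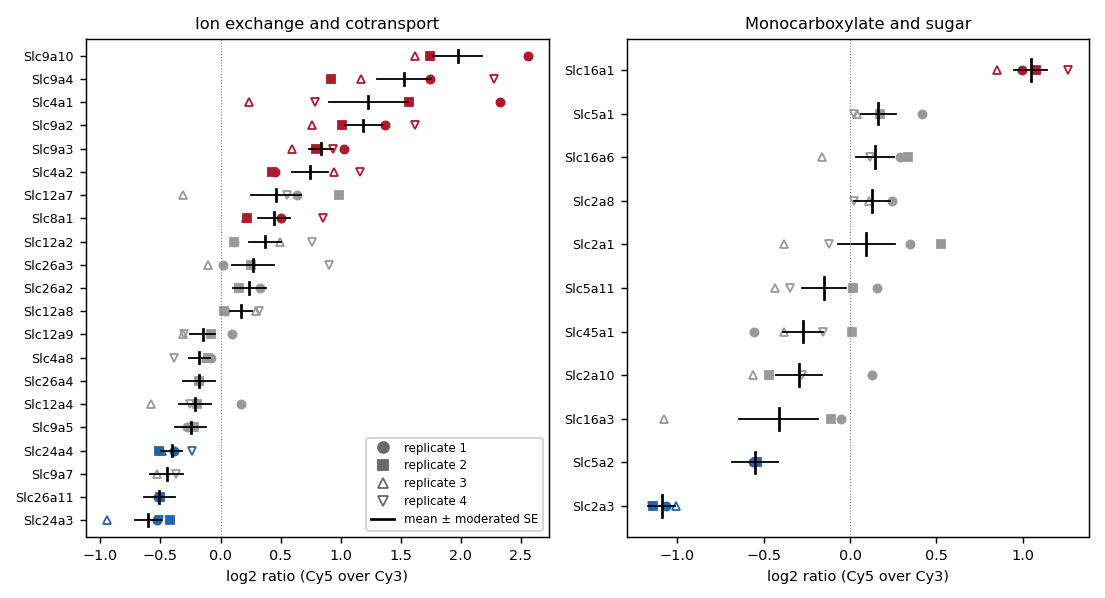
Log2 ratio (x axis) on each array of 21 of the 22 tested ion exchangers and cotransporters (left) and of the monocarboxylate and sugar carriers (right), with filled symbols for the first slide, open symbols for the second, and black bars for the mean ± moderated SE. Slc9a2, Slc9a3, Slc9a4, Slc9a10 and Slc16a1 lie above 0.5 on every array with a value, and Slc2a3 lies between -1.15 and -1.01.

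Of 3 tested monocarboxylate carriers, Slc16a1 (MCT1), the transporter through which colonocytes take up butyrate and other short-chain acids, rose. It read 0.99, 1.07, 0.85 and 1.26, with a mean of 1.05 ± 0.10 (n = 4, limma adjusted p = 0.00409). Slc16a3 (MCT4), a lactate exporter of glycolytic cells, read -0.05, -0.11 and -1.08 in replicates 1 to 3 and did not pass (mean -0.41, adjusted p = 0.181). Slc16a6 averaged 0.14 and did not pass. Slc16a7 was not tested, and Slc5a8, the sodium-coupled butyrate carrier, had no probe under this name.

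Sugar carriers had 0 of 8 tested genes higher in limma and 2 lower, and a median of -0.21. At an unadjusted p under 0.05 the count of higher ones was 0 as well, while under median centring Slc2a1 and Slc5a1 passed at 0.62 and 0.44. Slc2a3 (GLUT3), a high-affinity glucose transporter of neurons and blood cells, read -1.07, -1.14, -1.01 and -1.15 and fell by 1.09 on the log2 scale (SE 0.08, n = 4, limma adjusted p = 0.00388). The 4 arrays lay close together. With the scanner's processed signals it averaged -1.77 (adjusted p = 0.00164). Slc5a2 was measured on the first slide alone, at -0.56 and -0.54. The general glucose transporter Slc2a1 (GLUT1) read 0.35 and 0.53 on the first slide and -0.38 and -0.12 on the second, so that the slides lay on opposite sides of 0, and its mean of 0.09 ± 0.17 was not called. On the first slide alone it averaged 0.44 (adjusted p = 0.00993). The apical glucose carrier Slc5a1 (SGLT1) averaged 0.16 ± 0.10 and did not pass in this fit. Slc2a2 and the fructose carrier Slc2a5 were not well above background on any array.

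Carriers of amino acids, peptides and amines had 6 of 24 tested genes higher and 5 lower, with a median of -0.22. Slc43a3, placed here by its family number although it is known to carry purine bases, read 2.10, 1.49, 1.19 and 1.68 and rose by 1.61 ± 0.15 (n = 4, limma adjusted p = 0.00409). Its lowest array was above 1. Slc38a1 (SNAT1), a sodium-coupled glutamine carrier, read 0.81, 0.67, 0.54 and 0.85, a rise of 0.72 ± 0.09 (n = 4, limma adjusted p = 0.00515). Slc3a2, the CD98 heavy chain that brings several amino acid exchangers to the membrane, read 0.67, 0.41, 0.58 and 0.39 and rose by 0.51 ± 0.09 (n = 4, limma adjusted p = 0.00972), a call lost without replicate 1 (adjusted p = 0.0513). Its partner Slc7a5 (LAT1) had values on the first slide alone, -0.38 and -0.40, and did not pass (adjusted p = 0.0709). It was lower past the threshold on the first slide alone (adjusted p = 0.0127), without replicate 3 (0.0473) and with flagged spots kept (-0.28, adjusted p = 0.0356), and averaged 0.07 under median centring.

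Slc1a5 (ASCT2), an exchanger of glutamine and other neutral amino acids, rose by 0.48 ± 0.12 (n = 4, limma adjusted p = 0.0243), with a range from 0.11 in replicate 4 to 0.73 in replicate 1. Without replicate 1 or replicate 2 its adjusted p was 0.091 and 0.0937. Slc6a14, a carrier of neutral and cationic amino acids that is known to increase in colitis, rose by 0.32 ± 0.09 (n = 4, limma adjusted p = 0.0331) and lost its call without replicate 1 (0.108), replicate 2 (0.154) and replicate 4 (0.0807). Slc7a2 (CAT2), which brings arginine into cells, read -0.72, -0.71 and -1.13 in replicates 1 to 3 and fell to -0.85 ± 0.13 (n = 3, limma adjusted p = 0.00931). Slc6a6, the taurine carrier, fell by 0.78 on the first slide, where alone it was measured.

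The glutamate carrier Slc1a7 fell to -0.56 ± 0.14 (n = 4, limma adjusted p = 0.0231), a call lost without replicate 1 (0.0543) and replicate 4 (0.0612). The serotonin transporter Slc6a4, which clears serotonin from the mucosa, had ratios between -0.49 and -0.18 and a mean of -0.32 ± 0.10 (n = 4, limma adjusted p = 0.0367). Leaving out any array ended that call, with adjusted p between 0.052 and 0.167. Slc38a6 averaged -0.36 ± 0.10 (n = 4, limma adjusted p = 0.0305), and its call was lost without replicate 2 (0.134), replicate 4 (0.0778) and replicate 1 (0.05, just above the threshold). The peptide carrier Slc15a1 and the cystine carrier Slc7a11 were not well above background on any array.

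**Figure D3:**
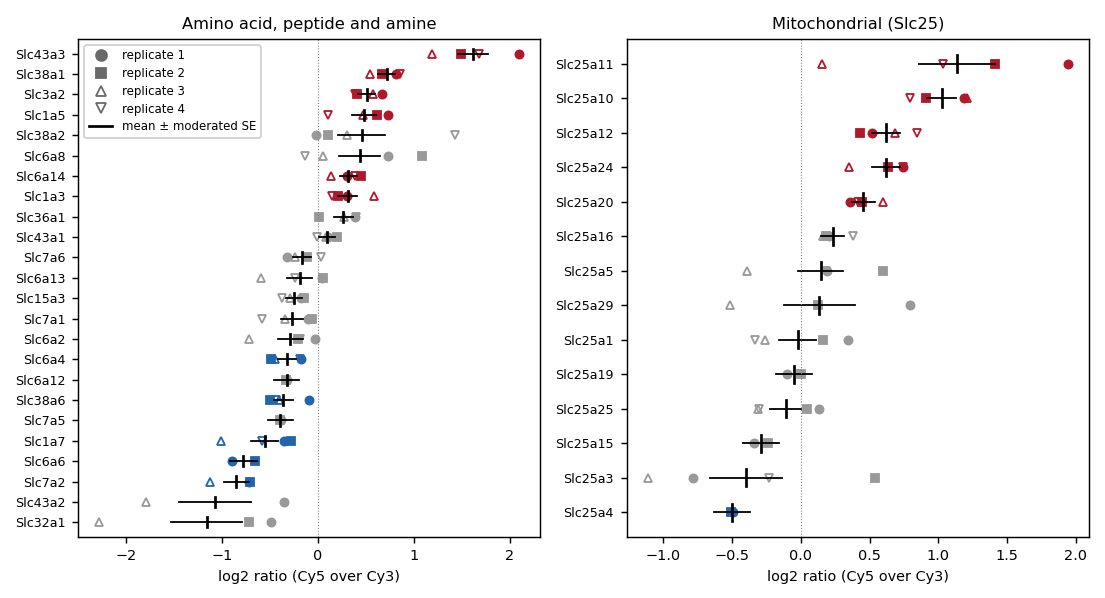
Log2 ratio (x axis) on each array of the tested amino acid, peptide and amine carriers (left) and of the mitochondrial Slc25 carriers (right), with filled symbols for the first slide, open symbols for the second, and black bars for the mean ± moderated SE. Slc43a3 stands apart at 1.61, and Slc25a10 and Slc25a11 lead the mitochondrial carriers at 1.03 and 1.14.

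Mitochondrial carriers had 5 of 14 tested genes higher and 1 lower, with a median of 0.14. Slc25a10, the dicarboxylate carrier for malate and succinate, read 1.19, 0.91, 1.21 and 0.79 and rose by 1.03 ± 0.10 (n = 4, limma adjusted p = 0.00409). Slc25a11, the oxoglutarate-malate carrier, read 1.94, 1.41, 0.16 and 1.04 and rose by 1.14 ± 0.27 (n = 4, limma adjusted p = 0.0217). The arrays of Slc25a11 were far apart, and its call was lost without replicate 1 (adjusted p = 0.0588), replicate 2 (0.0682) and replicate 4 (0.0552). Slc25a12, the aspartate-glutamate carrier, rose by 0.62 ± 0.10 (n = 4, limma adjusted p = 0.00779), with a range from 0.43 to 0.84.

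Slc25a24, an ATP-magnesium and phosphate carrier, read 0.74, 0.64, 0.35 and 0.74, a rise of 0.62 ± 0.10 (n = 4, limma adjusted p = 0.00789). The carnitine-acylcarnitine carrier Slc25a20, which admits fatty acids for oxidation, rose by 0.45 ± 0.08 (n = 4, limma adjusted p = 0.0109) and lost its call without replicate 2 (0.0571). The adenine nucleotide translocase Slc25a4 fell by both of its tested probes. The brightest, which has a hexamer, read -0.49 and -0.51 on the first slide and was flagged on the second. The other, without a hexamer, read -0.49, -0.48, -0.88 and -0.81, a mean of -0.66 ± 0.11 (n = 4, limma adjusted p = 0.00773). The call of the brightest probe (mean -0.50, adjusted p = 0.0413) was lost with slides as random blocks (0.0622), the scanner's processed signals (0.0514), an intensity trend (0.0841), both channels required on 4 arrays (0.0578) and a wider standard error (0.129).

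Slc25a4 is the translocase of heart and muscle, and the muscle markers Des and Myh11 averaged -1.40 (called) and -0.56 (not called), which is given beside it and was not tested. Its brightest probe averaged -0.00 (adjusted p = 0.993) under median centring. The paralog Slc25a5, the translocase of proliferating cells, was not called by its brightest probe (0.14 ± 0.16), but 1 of its 3 tested probes was called at 0.61 ± 0.10 (adjusted p = 0.00779). The 2 translocases are close paralogs, so a probe may bind both transcripts. The citrate carrier Slc25a1 averaged -0.02 and did not pass in this fit, but was higher under median centring (0.44, adjusted p = 0.0293) and with flagged spots kept (0.33, adjusted p = 0.021).

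Among metal carriers 4 of 19 tested genes rose and 4 fell, with a median of -0.05. Slc11a2 (DMT1), which takes iron into enterocytes, read -0.38, -0.43 and -0.86 in replicates 1, 2 and 4 and fell to -0.56 ± 0.14 (n = 3, limma adjusted p = 0.0272). Slc40a1 (ferroportin), which exports iron, read 0.36, 0.32, 0.21 and 0.93 and rose by 0.45 ± 0.14 (n = 4, limma adjusted p = 0.0391). Without replicate 1, 2 or 4 the adjusted p was 0.0673, 0.0794 and 0.0676 for Slc11a2 and 0.0903, 0.0869 and 0.0612 for Slc40a1, and Slc40a1 averaged 0.29 without replicate 4. Under median centring Slc11a2 averaged -0.16 (adjusted p = 0.534).

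The zinc exporter Slc30a4 read 0.85, 0.64, 0.63 and 0.38, a rise of 0.63 ± 0.10 (n = 4, limma adjusted p = 0.00791). Slc30a1, the zinc exporter of the plasma membrane, rose by 0.38 ± 0.10 (n = 4, limma adjusted p = 0.0237), a call lost without replicate 1 (0.0697), replicate 2 (0.114) and replicate 4 (0.0593). Slc39a11, a further member of the zinc importer family, rose by 0.32 ± 0.10 (n = 4, limma adjusted p = 0.0403) and lost its call without replicate 1 (0.168), replicate 2 (0.108) and replicate 3 (0.0712). The second probe of Slc39a11 averaged 0.20 and was not called. Slc30a2 read -0.51, -0.24, -0.50 and -0.51 and fell to -0.44 ± 0.09 (n = 4, limma adjusted p = 0.0135), a call lost without replicate 1 (0.064).

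Slc30a3 (ZnT3), the zinc carrier of synaptic vesicles, read -0.70, -0.44, -2.37 and -0.64. Replicate 3 stood far below the others. The spot was saturated on 1 array in Cy5 and on 2 in Cy3, so that its ratios are inexact. The mean was -1.04 ± 0.32 (n = 4, limma adjusted p = 0.0418) with it and -0.59 (adjusted p = 0.00843) without it, and the call was lost without replicate 1 (0.0756), 2 (0.0591) or 4 (0.0717). With flagged spots kept the mean was 0.04, and with the scanner's processed signals -0.36 (adjusted p = 0.0718). The magnesium carrier Slc41a1 fell to -0.29 ± 0.09 (n = 4, limma adjusted p = 0.041), and leaving out any array ended the call, with adjusted p between 0.0831 and 0.122. The zinc importers Slc39a4 and Slc39a8 and the phagosomal metal carrier Slc11a1 had means of -0.08, 0.01 and 0.10, with standard errors of 0.09 to 0.11, and did not pass.

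**Figure D4:**
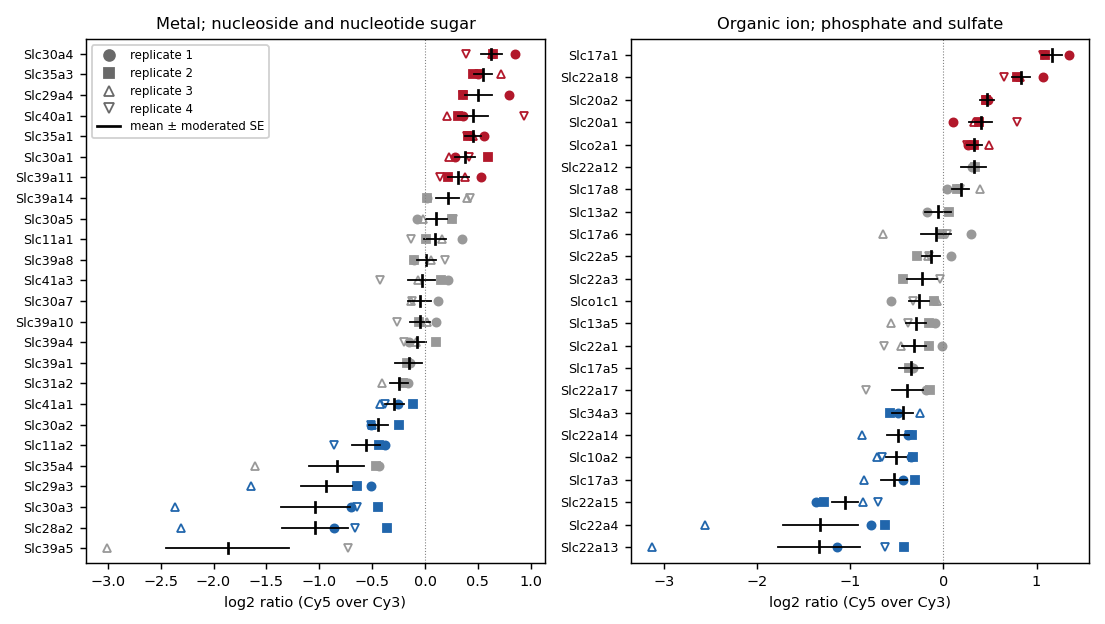
Log2 ratio (x axis) on each array of the tested metal, nucleoside and nucleotide sugar carriers (left) and of the organic ion, phosphate and sulfate carriers (right), with filled symbols for the first slide, open symbols for the second, and black bars for the mean ± moderated SE. Slc30a3, Slc28a2, Slc22a4 and Slc22a13 have replicate 3 more than 1 below their other arrays.

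Organic ion, bile acid and drug carriers had the lowest median, -0.32, with 2 of 13 tested genes higher and 5 lower. Slc22a18, an organic cation carrier, read 1.07, 0.79, 0.82 and 0.65 and rose by 0.83 ± 0.10 (n = 4, limma adjusted p = 0.00485). Slco2a1, the prostaglandin transporter, rose by 0.33 ± 0.09 (n = 4, limma adjusted p = 0.0251) and lost its call without replicate 1 (0.0801) and replicate 2 (0.103). Slc22a15 read -1.37, -1.28, -0.86 and -0.71, a mean of -1.05 ± 0.14 (n = 4, limma adjusted p = 0.00525). Its Cy5 signal was well above background on 0 of 4 arrays and its Cy3 signal on 3, so that its level with resveratrol has only a bound, and the gene was at least 1.4-fold lower, with the brighter group's mean level set against the weakest signal still well above background.

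Slc10a2 (ASBT), the sodium-coupled bile acid carrier of the ileum, read -0.34, -0.33, -0.71 and -0.65 and fell to -0.51 ± 0.10 (n = 4, limma adjusted p = 0.014). Slc22a4 (OCTN1), which carries ergothioneine, read -0.78, -0.63 and -2.56 in replicates 1 to 3, a mean of -1.32 ± 0.40 (n = 3, limma adjusted p = 0.0459). Slc22a13, whose spot was saturated on 1 array in Cy5 and on 2 in Cy3, read -1.14, -0.42, -3.13 and -0.63, a mean of -1.33 ± 0.44 (n = 4, limma adjusted p = 0.0489). Replicate 3 was far below the other arrays for both, and without it the means were -0.70 (adjusted p = 0.0122) and -0.73 (0.0134). Without replicate 1, 2 or 4 the adjusted p was 0.0716, 0.0592 and 0.0585 for Slc22a4 and 0.0975, 0.0579 and 0.0699 for Slc22a13. The carnitine carrier Slc22a5 (OCTN2) averaged -0.13 and did not pass.

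Of 22 carrier genes that fell and had a value in replicate 3, 15 had their lowest value there, and in 4 it was more than 1 below the other arrays. The matching count over all genes called lower is not given here, so this is no trait of the carriers. The median of the 138 carrier genes was -0.11 in replicate 3 and between 0.02 and 0.09 in the other replicates, beside -0.11 and -0.02 to 0.01 for all genes. The part of this array in the lower calls was not tested beyond the fits without it.

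Phosphate, sulfate and dicarboxylate carriers had 3 of 10 tested genes higher and 2 lower. Both sodium-phosphate carriers of the Slc20 family rose. Slc20a2 (PiT2) read 0.48, 0.46, 0.46 and 0.45, a rise of 0.47 ± 0.08 (n = 4, limma adjusted p = 0.00811). Slc20a1 (PiT1) rose by both probes, by 0.40 ± 0.13 and 0.51 ± 0.08, and the first call was lost whichever array was left out, with adjusted p between 0.0525 and 0.121. Slc17a1 (NPT1), a urate and phosphate carrier of the kidney, read 1.34, 1.09 and 1.07 in replicates 1, 2 and 4 and rose by 1.17 ± 0.11 (n = 3, limma adjusted p = 0.00475).

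The 2 genes of that group that fell were Slc17a3, by 0.53, and the sodium-phosphate carrier Slc34a3, by 0.44. For Slc17a3 the adjusted p was 0.0922, 0.0705 and 0.058 without replicate 1, 2 and 3. For Slc34a3 it was 0.134 and 0.167 without replicate 1 and 2.

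Of 6 tested nucleoside and nucleotide sugar carriers 3 rose and 2 fell. Slc35a3, which brings UDP-N-acetylglucosamine into the Golgi, read 0.50, 0.46, 0.72 and 0.51, a rise of 0.55 ± 0.09 (n = 4, limma adjusted p = 0.00759). Slc35a1, the CMP-sialic acid carrier of the Golgi, read 0.55, 0.41, 0.45 and 0.40 and rose by 0.45 ± 0.08 (n = 4, limma adjusted p = 0.00967), with adjusted p = 0.0544 without replicate 1 and 0.0509 without replicate 2. Both carriers feed sugars into glycoproteins such as mucins. Slc29a4, a monoamine carrier, rose by 0.51 and lost its call without replicate 1 (0.14), 2 (0.0852) and 4 (0.0622).

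The lysosomal nucleoside carrier Slc29a3 read -0.51, -0.65 and -1.65 in replicates 1 to 3, a mean of -0.93 ± 0.24 (n = 3, limma adjusted p = 0.0324), with -0.58 (0.0189) without replicate 3, and its call was lost without replicate 1 (0.053) and replicate 2 (0.0666). Slc28a2 (CNT2), which takes up purine nucleosides and whose spot was saturated on 2 arrays in each channel, read -0.86, -0.36, -2.30 and -0.66, a mean of -1.04 ± 0.31 (n = 4, limma adjusted p = 0.0378). Without replicate 3 the mean was -0.62 (adjusted p = 0.0118), without replicate 1 or 4 the adjusted p was 0.0796 and 0.0664, and with flagged spots kept the mean was 0.02. The second probe of Slc28a2 averaged -0.35 and was not called. Slc30a3, Slc22a13 and Slc28a2 were the 3 called genes with a saturated spot on any array.

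The remaining families had 7 of 19 tested genes higher and 3 lower. Slc23a3 read 0.85, 0.66, 0.55 and 0.69, a rise of 0.68 ± 0.09 (n = 4, limma adjusted p = 0.0052). Slc44a4, the colonocyte carrier of bacterial thiamine pyrophosphate, read 0.60, 1.08, 0.22 and 0.77 and rose by 0.67 ± 0.15 (n = 4, limma adjusted p = 0.0169), with adjusted p of 0.0541, 0.0604 and 0.0509 without replicate 1, 2 and 4. Slc37a3 rose by 0.76 and the folate carrier Slc19a1 by 0.57. Without replicate 1 and 2 the adjusted p was 0.0547 and 0.0657 for Slc37a3 and 0.0763 and 0.0798 for Slc19a1.

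The thiamine carrier Slc19a2 fell by 0.59 and lost its call without replicate 2 (0.0567) and replicate 4 (0.0722). Slc37a2 fell by 0.57 and the choline transporter-like gene Slc44a2 by 0.36. Leaving out any array ended both calls, with adjusted p between 0.0543 and 0.113 for Slc37a2, which averaged -0.36 without replicate 3, and between 0.0518 and 0.0916 for Slc44a2.

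More than 1 probe was tested for 22 carrier genes. In 0 of them were probes called in opposite directions, and in 7 the probes differed in sign. Of the 16 with a call by any probe, 2 were called by each of their probes (Slc20a1 and Slc25a4). In 3, only the brightest probe was called (Slc4a1, Slc28a2 and Slc39a11). The other 11 were called by another probe than the brightest, so that their gene is counted here as not called. Slc5a3, the myo-inositol carrier, is an example with 2 probes a short way apart in the genome.

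Slc5a3 brightest (chr11:32120594.0-32120653.0, plus strand): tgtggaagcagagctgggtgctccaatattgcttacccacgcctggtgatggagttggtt
Slc5a3 second (chr11:32120746.0-32120805.0, plus strand): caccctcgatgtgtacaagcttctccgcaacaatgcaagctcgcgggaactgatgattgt

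The brightest read 0.63, 0.30 and -0.16 in replicates 1 to 3, a mean of 0.26 ± 0.17 (adjusted p = 0.251). The second read 1.22, 0.95, 0.74 and 0.75, a mean of 0.92 ± 0.11 (n = 4, limma adjusted p = 0.00492). Neither has a hexamer. The creatine carrier Slc6a8 had means of 0.43 (not called) and 1.06 (called), and the glutamine carrier Slc38a2 of 0.45 (not called) and 0.83 (called). These genes were chosen after their values were seen.

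**Figure D5:**
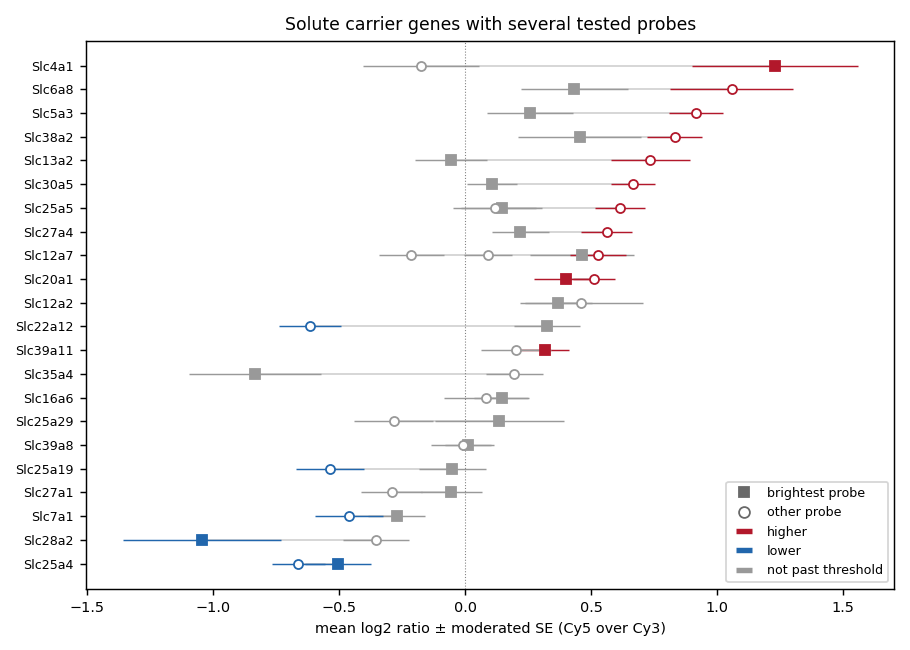
Mean log2 ratio ± moderated SE (x axis) of each tested probe for the 22 solute carrier genes with more than 1 tested probe, with squares for the brightest probe and open circles for the others. Red probes were higher, blue lower and grey not called, and the widest gap within a gene is that of Slc4a1, between 1.23 and -0.18.

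Partners of transport that are not solute carriers were looked up as a list of 37 genes, of which 26 were tested, 10 rose and 2 fell, with a median of 0.34, beside 22.3% higher and 24.4% lower over all genes. Under median centring 16 rose and 1 fell, beside 34.4% higher and 10.3% lower over all genes. Higher were Cftr, the apical chloride channel (0.78 ± 0.11), Slc9a3r1, the scaffold that anchors NHE3 (0.61 ± 0.13), Bsg, the chaperone of MCT1 (0.42 ± 0.11), and the carbonic anhydrases Car2 (0.72 ± 0.20) and Car4 (0.89 ± 0.18). The limma adjusted p of these 5 genes lay between 0.00644 and 0.0298 (n = 4). Clcn2, Scnn1a, Aqp3 and Kcne3 also rose, by 0.55, 0.48, 0.79 and 0.49, with Aqp3 measured on 2 arrays. The pump subunit Atp1b2 fell by 0.52 and the potassium channel subunit Kcne1 by 0.41. Without replicate 1, 3 partners rose and 0 fell, without replicate 2 the counts were 2 and 1, and without replicate 4 they were 8 and 1. The water channel Aqp8 read -0.87, -1.29, 0.14 and 2.05 and was not called, with the slides on opposite sides of 0.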

How the data were processed

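RNA of colon mucosa was measured on 4 two-colour arrays, described in the report. Per the file headers, the intensity of each spot was read by Agilent Feature Extraction 9.5.3.1, and probe positions are on rn3. The authors also deposited a value table of log2 ratios (24197 probes, r of 0.98 to 0.99 with the scanner ratios, column medians of -0.01, -0.01, 0.09 and -0.02), whose centring is not stated and which served as an alternative. Feature Extraction and limma are named in the submitters' processing notes. Here, mean signals and background medians were corrected by normexp (offset 50) and ratios by loess within each array in limma 3.58.1 (R 4.3.3). Spots flagged as outliers and the 1639 control spots among 45018 took no weight, and repeated spots of a probe were averaged. Probes had to be well above background on 3 or more arrays, in either channel, and to keep 2 or more values (116, 21 and 26 of the 163 carrier probes had values on 4, 3 and 2 arrays). The mean ratio was tested against 0, two-sided, with lmFit and eBayes and Benjamini-Hochberg adjustment over 18869 probes, and the brightest probe stands for its gene. Nothing in the labels says whether control RNA was the same pool on each array, so p-values measure the spread between these arrays.

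Carrier names were updated through a RefSeq table (GRCr8) by accession for 243 probes and by symbol for 97, and 6 genes have other symbols today. Always named were 40 genes with a known role in gut. Named as well were, per family, up to 4 called genes at each end with values on at least 3 arrays and 1 sign. Others are said to be chosen after their values were seen, and Slc26a11, Slc5a2, Slc6a6, Slc39a5, Slc16a6 and Aqp8 are among them. The members and lists were chosen with earlier results of these data known. On simulated data with 18869 probes for this comparison, changes of 1 on the log2 scale were recovered for 44% of raised and 44% of lowered probes, and changes of 2 for 70% and 88%. Only a small set of probes was changed there, in a single draw, while 24.4% of the measured probes were called higher and 22.7% lower. The adjustment was therefore stricter there, and these shares do not give what the real test recovers. The gap between 70% and 88% was not tested. Alternatives are given with their effect in the closing section. Most change 1 choice, but requiring both channels also raises the number of arrays, and the authors' value table differs in correction, filter and centring together. Some genes that these rules or lists take are left out of the text and are not reported here.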

Additional observations from a re-analysis of the deposited data

Results flagged for a closer look

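An array that lay apart from the other 3 was looked for in the 57 named carrier genes with values on 4 arrays and in the 10 family medians, by the gap to the nearest array divided by the whole range against Dixon's critical value for 4 samples. It was passed in 3 of these 67 groups, and chance alone passes it in about 1 of 20. Slc30a3 read -2.37 in replicate 3 and between -0.70 and -0.44 on the other arrays (gap over range 0.868). Slc44a2 read -0.62 in replicate 3 and between -0.29 and -0.24 on the others (0.884). Slc30a2 read -0.24 in replicate 2 and between -0.51 and -0.50 on the others (0.957). The 3 genes were called lower, and their values without that array stand in the report or in the next part.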

How the results depend on the processing

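The 38 higher and 27 lower carrier genes became 53 and 12 under median centring, 21 and 13 with both channels required on 4 arrays (102 genes tested), 16 and 3 with the standard error multiplied by the square root of 2 as an allowance for the pool, 11 and 7 on the second slide alone (106 tested), and 46 and 41 of 194 in the authors' value table. Of all genes, 7.1% were higher and 4% lower with the wider error, and 4.9% and 7.4% on the second slide. Leaving out 1 array gave 18 to 37 carrier genes higher and 8 to 27 lower, beside 11% to 23.5% and 9.3% to 24.4% of all genes. Without hexamer probes 26 were higher and 26 lower of 116 tested (22.4% each), beside 21.7% and 26.7% of all genes. The 10 higher and 2 lower transport partners became 16 and 1 under median centring and 16 and 2 with flagged spots kept. They became 1 and 0 with the wider error, and 1 and 1 on the second slide, beside the shares of all genes given above. With flagged spots kept 34.3% of all genes were higher and 29.2% lower. Leaving out 1 array gave 2 to 15 partners higher and 0 to 2 lower, beside the same shares of all genes as for the carriers. The cause was not tested. Reversed were Slc25a1 under median centring (0.44) and with flagged spots kept (0.33), and Slc28a2 (0.018) and Slc30a3 (0.043) with flagged spots kept. The scanner's processed signals gave -1.81 for Slc22a15 and 1.53 for Slc23a3, in place of -1.05 and 0.68. Slc30a2 averaged -0.51 without replicate 2, and Slc44a2 -0.27 without replicate 3. With values on all 4 arrays required, an alternative chosen after seeing the data, 36 were higher and 19 lower of 101, beside 29.5% and 21.6% of all genes. No paired analysis was possible because the labels give 1 group and no replicate numbers that could pair samples of 2 groups. Each ratio already compares both channels of an array. Genes near background in a channel have ratios limited by that signal.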
